A study of Mus musculus with 16 samples.

Results

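Livers of mice that had received metformin on either of 2 intermittent schedules were compared with livers of mice that had stayed on the standard diet (SD), to describe what the schedules had in common. All 9 metformin mice were pooled against the 4 SD mice, so that the 13 mice of the series all entered, measured on 16 arrays. The mice were male C57BL/6, bought at 104 weeks of age, kept on the purified AIN-93G diet for a month, and then randomised to 3 groups which all ate that base diet. SD mice (n = 4) had no drug, EOW mice (n = 5) ate the diet with 1% metformin every other week, and 2WM mice (n = 4) ate it for 2 consecutive weeks of each month, over 17 weeks in the liver study. By the study's account the mice killed for tissue after 17 weeks had not been fasted. It states for blood tests at 17 weeks that both schedules were on the drug. It also reports metformin in serum and liver extracts of both after 17 weeks, and its discussion describes EOW mice as on metformin when killed. The labels give none of these points. The study's legend gives fewer EOW livers than the labels hold and does not say which they were, so all EOW mice of the labels were used. RNA came from frozen pieces of whole liver, was primed with oligo-dT for labelling, and was hybridised to Illumina BeadArrays of 25697 probes. In 1 mouse of each group the RNA was run on 2 arrays, which were averaged as 1 mouse. Probes entered the test when 1 or more of the 3 groups had a detection p-value below 0.05 on each of its arrays, which left 11143 probes of 7816 named genes, and where 1 value per gene is given it is that of the brightest detected probe.

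Metformin is a biguanide that enters hepatocytes through organic cation transporters, inhibits complex I of the mitochondrial respiratory chain and can activate the energy sensor AMPK. Liver is the main site of gluconeogenesis and of cholesterol synthesis. Enzymes of the mevalonate and sterol pathway are transcribed together under SREBP-2, the product of Srebf2, which is cleaved and moves to the nucleus when sterols in the endoplasmic reticulum are low, while SREBP-1c, from Srebf1, and ChREBP, from Mlxipl, drive fatty acid synthesis in the fed state.

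Levels below are log2 signals relative to the mean of the array, brought to a common spread, so they compare mice and not genes. A difference is the mean of the metformin mice minus that of the SD mice, with its standard error (SE) from limma, and adjusted p-values are limma's over all 11143 probes. Median signal of a mouse was 145.3 to 178.2 in SD and 127.2 to 178.1 in metformin (exact permutation p = 0.545, two-sided), and 11698 to 12500.5 and 11457 to 12791 probes were detected (exact permutation p = 0.881). The smallest p these 715 splits allow is 0.0014. Repeat arrays of a mouse correlated at 0.993 to 0.995. EOW mouse 4 stood apart, with correlations of 0.841 to 0.888 with the other 12 mice. Markers of T and NK cells (median of 6 genes) read 3.99 log2 units over the SD mean in it, against −0.24 to 0.33 in the other mice, so counts are also given without it. All 6 tested hepatocyte markers had a positive difference (median 0.25), but under median centring Apoa1 (−0.084), Ahsg (−0.073) and Cps1 (−0.024) turned negative and Ttr came to 0.070. In whole liver, fewer cells of a type and less RNA per cell cannot be told apart.

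The pooled comparison gave no probe past an adjusted p of 0.05 in either direction (0% of 11143 higher, 0% lower, smallest adjusted p 0.120 in limma). At an unadjusted p under 0.05, 296 probes stood higher in metformin livers (2.66%) and 680 lower (6.1%), together 8.76%, and 43.9% of all tested probes had a positive difference. All 9 metformin mice read above all 4 SD mice in 32 probes (0.287%) and below them in 56 (0.503%), a description that uses no model. The differences of these probes had a median of 0.39 among the higher (0.11 to 1.58) and −0.33 among the lower (−0.16 to −0.88). Of the higher probes 26 were detected on all 16 arrays, and of the lower 39. The excess of lower over higher probes depended on how arrays were scaled: probes with an unadjusted p under 0.05 were higher in 30.3% of cases here, in 42.9% after neqc, in 41.4% after quantile normalization and in 4.46% after median centring. Across these 4 scalings, 5 probes lay above all SD mice each time and 26 below. The 5 belong to Sqle, Nsdhl, Nampt, Septin6 and Tuba8. Those of Sqle and Nsdhl were detected on all 16 arrays. Of the 5 SD arrays, Nampt was detected on 1, Septin6 on 0 and Tuba8 on 2, against all 6 EOW arrays, so these 3 entered only through metformin groups, where they read high. The lower side has the like limit. Among the 26, the probes of Il1rap, Gcnt2, H4c3 and Lrrc40 were detected on all 5 SD arrays but not on every array of either metformin group. They entered only through SD, where they read high.

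**Figure D1:**
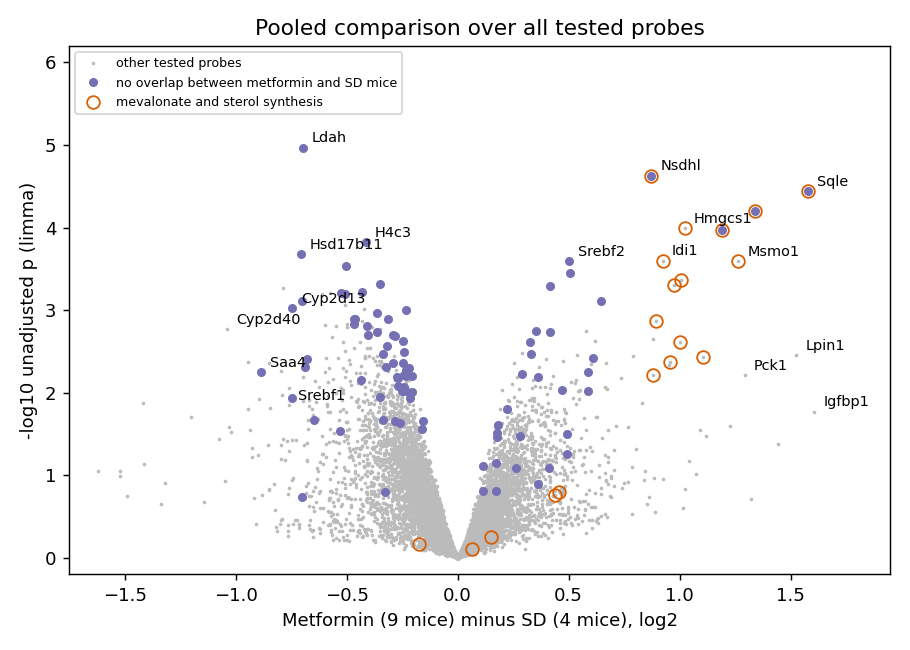
Each point is 1 of 11143 tested probes, by its difference between 9 metformin and 4 SD mice in log2 units and the −log10 of its unadjusted p from limma. Filled purple points are the probes, 32 higher and 56 lower, whose metformin and SD mice did not overlap, and orange rings, probes of mevalonate and sterol synthesis genes, lie mainly at the upper right.

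Genes of sterol synthesis stood higher in both schedules. Of 20 listed genes of the mevalonate and sterol pathway 15 were tested, 14 had a positive difference and 10 of these an unadjusted p under 0.05, with none lower, against 3.03% higher and 5.5% lower among all 7816 genes. Their median difference was 0.93 (0.75 in EOW and 1.11 in 2WM against the same SD mice), beside −0.012 over all genes. It stayed between 0.79 and 1.08 under all 26 settings tried, which include scalings, filters and each mouse left out. Some of these, such as the filters and the Z scores the authors deposited, leave a gene's difference in effect unchanged by construction. None of the 15 passed the adjusted threshold in the pooled fit. In single mice the list's median deviation from the SD mean was −0.47 to 0.41 in SD. It was −0.13 to 1.22 in EOW and 0.89 to 1.28 in 2WM. SD mouse 4, at 0.41, lay just above EOW mouse 1, at 0.40, and above EOW mouse 4.

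Sqle encodes squalene epoxidase, which catalyses the first oxygenation of the sterol pathway and is one of its rate-limiting steps. Its level was 1.54, 1.63, 2.63 and 3.29 in the SD mice, 3.37, 4.06, 3.94, 4.13 and 3.77 in EOW and 4.10, 3.79, 3.86 and 3.65 in 2WM. The lowest metformin mouse lay just above SD mouse 4, and the other 3 SD mice were well below both. The difference was 1.58 ± 0.265 (SE), which is 2.99-fold (adjusted p = 0.134), and it was 1.58 in each schedule. Between schedules it differed by 0.00 with an interval of −0.66 to 0.67. A separate probe of Sqle gave 1.34 and did not overlap either. It is this separate probe that was free of overlap under all 4 scalings, and the first was so under 3. Without SD mouse 4 the difference of the first probe was 1.92 with an adjusted p of 0.00799 in limma.

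Nsdhl, on the X chromosome, encodes a sterol dehydrogenase that removes the C4 methyl groups of sterols. Its 4 probes gave differences of 0.87 to 1.19, and in 2 of them the groups did not overlap. The probe with the smallest p read −0.20, 0.00, 0.03 and 0.05 in SD, 0.37, 1.05, 0.96, 0.43 and 0.77 in EOW and 1.21, 0.91, 0.95 and 0.93 in 2WM. SD mice were tightly grouped here and every metformin mouse was higher (0.87 ± 0.140 SE, adjusted p = 0.131). In the brightest probe EOW mouse 4, at 0.74, lay among the SD mice, which ranged from 0.59 to 1.40.

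Hmgcs1, the cytosolic synthase that makes HMG-CoA for the pathway, read 5.06, 5.12, 5.35 and 5.90 in SD, 6.24, 6.60, 6.28, 5.70 and 6.37 in EOW and 6.80, 6.28, 6.71 and 6.45 in 2WM. EOW mouse 4 was the exception among metformin mice, between SD mice 3 and 4. The difference was 1.02 ± 0.191 (SE, adjusted p = 0.197).

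Idi1, the isopentenyl diphosphate isomerase, read −0.22, −0.30, 0.17 and −0.06 in SD, 0.52, 0.49, 0.75, 0.11 and 1.03 in EOW and 1.09, 1.02, 1.20 and 1.20 in 2WM. Again 8 of 9 metformin mice exceeded every SD mouse, and the same EOW mouse did not. The difference of 0.93 ± 0.190 (SE, adjusted p = 0.261) was made of 0.68 in EOW and 1.23 in 2WM (EOW minus 2WM −0.54, interval −0.89 to −0.20, unadjusted p = 0.00435).

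Msmo1, which acts with Nsdhl in C4 demethylation, read 2.81 to 4.30 in SD and 4.10 to 5.49 in metformin mice and differed by 1.26 ± 0.260 (SE, adjusted p = 0.261), with 8 of 9 metformin mice above all SD mice. Cyp51, the lanosterol demethylase, differed by 1.00, Mvd, the mevalonate diphosphate decarboxylase, by 0.98, Fdps, the farnesyl diphosphate synthase, by 1.11, Hsd17b7, a 3-ketosteroid reductase, by 0.89, and Lss, the lanosterol synthase, by 0.88. Their values overlapped, with 8 of 9 metformin mice above all SD mice for Mvd and Cyp51, 7 for Hsd17b7 and Lss, and 4 for Fdps, where SD mouse 4 read 5.56. Mvd, Fdps, Hsd17b7, Lss and Cyp51 are outside the rule by which single genes were chosen and were picked after their values were seen.

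Pmvk, the phosphomevalonate kinase, differed by 0.46. At the late end of the pathway several genes did not share this pattern. Sc5d, the lathosterol oxidase, had a difference of −0.17 ± 0.405 (SE), composed of −0.76 in EOW and 0.56 in 2WM (EOW minus 2WM −1.33, interval −1.95 to −0.70, unadjusted p = 0.000523). Ebp, the sterol isomerase, differed by 0.15, Tm7sf2, a sterol reductase, by 0.066, and Dhcr7, the last reductase, by 0.44, these 3 and Pmvk being chosen after their values were seen.

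**Figure D2:**
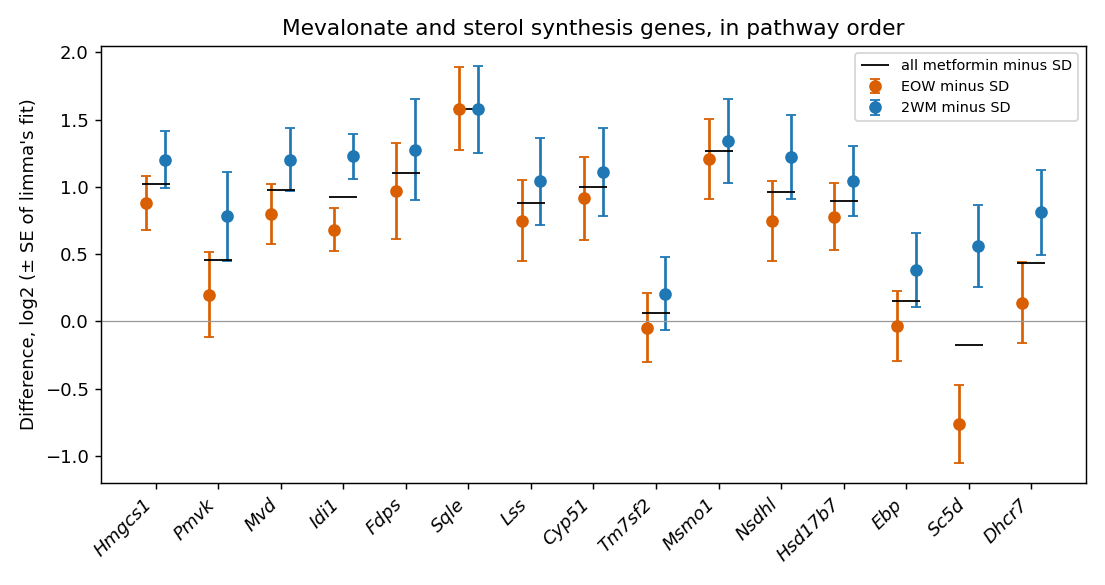
Difference from SD in log2 units (y axis) for the 15 tested genes of mevalonate and sterol synthesis, in pathway order, for EOW (orange, n = 5) and 2WM (blue, n = 4), with the SE of limma's 3-group fit, and for all metformin mice (black bar, n = 9). Both schedules stand near 1.58 for Sqle and apart for Sc5d, at −0.76 and 0.56.

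The genes that control the pathway had smaller differences. Srebf2 itself, which encodes SREBP-2, read 0.38, 0.40, 0.40 and 0.21 in SD, 0.98, 0.99, 0.67, 1.07 and 0.94 in EOW and 0.79, 0.87, 0.85 and 0.47 in 2WM. No metformin mouse reached down to the SD range, though 2WM mouse 4 came close to it. The difference was 0.50 ± 0.103 (SE), a 1.42-fold difference (adjusted p = 0.261). Of the 13 tested genes of SREBP control and cholesterol uptake 6 were positive and 7 negative with a median of −0.055. Stard4, a cholesterol carrier, had a positive difference (0.43, and 0.28 without SD mouse 1 or 0.73 without SD mouse 4) and Abcg8 (−0.68) and Abcg5 (−0.45), which form the transporter that secretes sterols into bile, negative ones. Nr1h3, which encodes the sterol-sensing receptor LXR alpha, differed by −0.36 ± 0.124 (SE, adjusted p = 0.522), with 8 of 9 metformin mice below all SD mice. Abcg5 was picked after its value was seen.

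Promoter sequence is shown for 3 of the sterol genes, since they stood higher together and their promoters have known elements. Windows from 250 bases before to 50 after the start of transcription came from RefSeq (build GRCm38.p6) and were matched for 13 of the 15 tested genes, in 16 windows. They were searched on both strands for CCAAT, the box bound by NF-Y, which works beside SREBP at sterol genes, for TCACCCCAC, a sterol regulatory element known from the human LDL receptor gene, and for CACGTG, an E-box. CCAAT was in 13 of the 16 windows (81.2%) and at least 1 window of each of the 13 genes, against 37.4% of all 32851 windows. TCACCCCAC was in 1 (6.25% against 0.551%) and CACGTG in 3 (18.8% against 7.15%). None of these motifs contains another. These matches describe letters only. In the sequences below, 5′ to 3′ on the strand of the gene, capitals mark CCAAT or its reverse complement ATTGG and, in Hmgcs1, TCACCCCAC. The Hmgcs1 window is chr13:119690101-119690400 (+ strand, 4 CCAAT and 1 TCACCCCAC), that of Nsdhl chrX:72918271-72918570 (+ strand, 4 CCAAT) and that of Idi1 chr13:8885356-8885655 (+ strand, 2 CCAAT).
Hmgcs1: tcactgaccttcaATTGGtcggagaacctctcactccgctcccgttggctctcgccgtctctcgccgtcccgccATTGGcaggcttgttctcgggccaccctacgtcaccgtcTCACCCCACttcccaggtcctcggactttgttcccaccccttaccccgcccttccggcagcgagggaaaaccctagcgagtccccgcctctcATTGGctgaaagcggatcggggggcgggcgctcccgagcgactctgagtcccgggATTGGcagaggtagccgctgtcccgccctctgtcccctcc
Nsdhl: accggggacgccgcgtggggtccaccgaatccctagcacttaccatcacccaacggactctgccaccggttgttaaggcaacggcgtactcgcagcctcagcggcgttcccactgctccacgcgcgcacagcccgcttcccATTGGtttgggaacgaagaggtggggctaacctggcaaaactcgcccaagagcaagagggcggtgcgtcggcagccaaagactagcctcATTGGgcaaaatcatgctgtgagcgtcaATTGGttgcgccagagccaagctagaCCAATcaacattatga
Idi1: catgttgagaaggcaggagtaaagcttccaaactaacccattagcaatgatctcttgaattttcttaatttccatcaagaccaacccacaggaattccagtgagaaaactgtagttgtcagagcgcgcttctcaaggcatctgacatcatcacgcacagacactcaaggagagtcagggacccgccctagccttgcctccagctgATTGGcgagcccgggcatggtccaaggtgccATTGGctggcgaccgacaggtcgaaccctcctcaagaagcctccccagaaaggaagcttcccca

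Hmgcs1 thus combined a TCACCCCAC match with CCAAT boxes, while the windows of Nsdhl and Idi1, with differences of a like size, held CCAAT boxes alone. Among the genes with non-overlapping probes, CCAAT was in 39.3% of the windows of the higher and 43.1% of those of the lower genes, near its share in all windows.

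**Figure D3:**
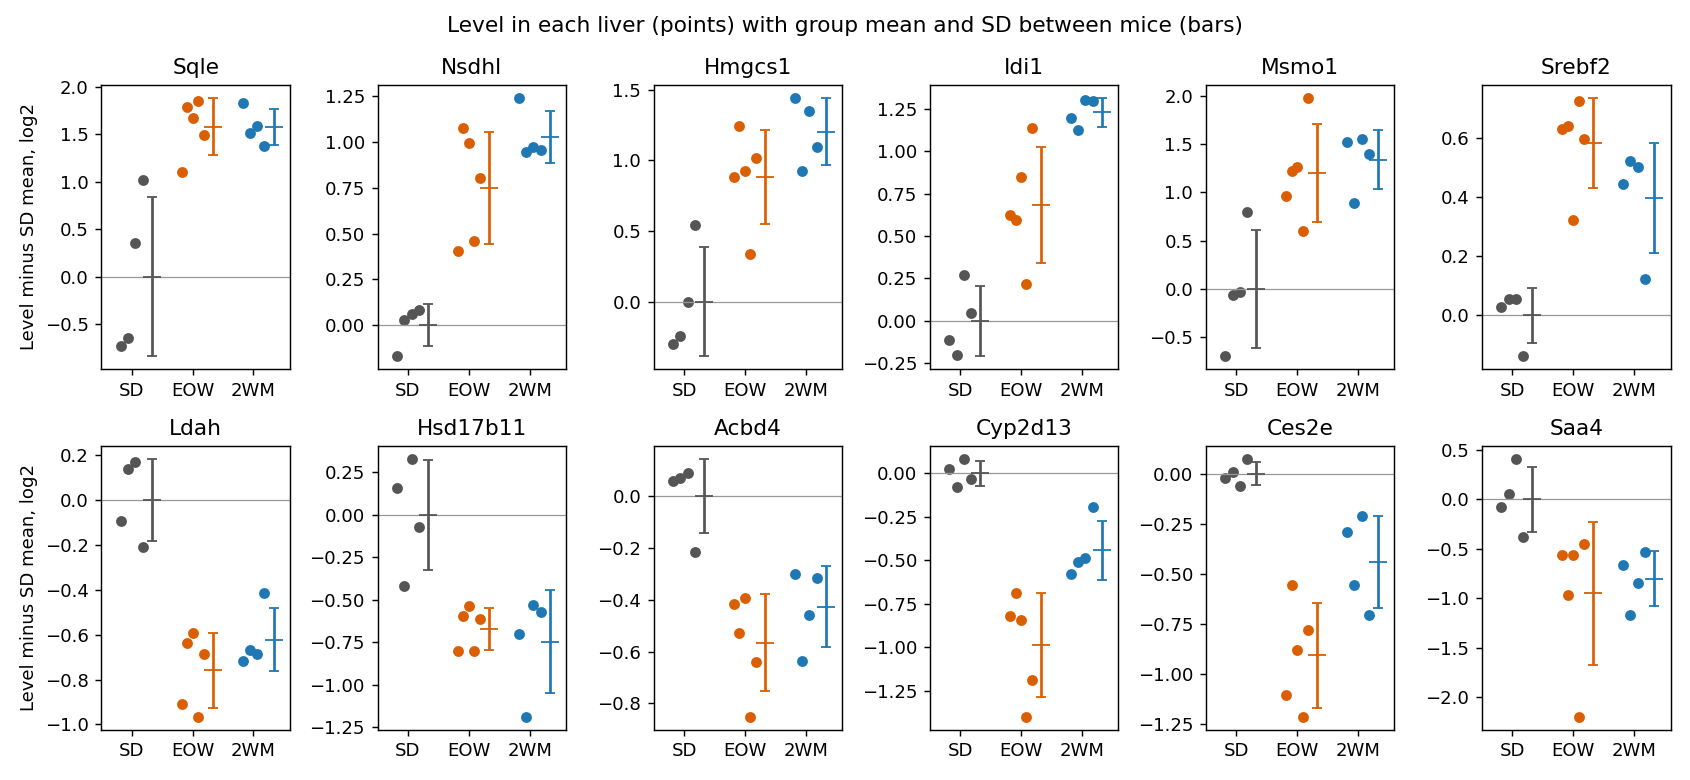
Level in each liver relative to the SD mean in log2 units for 6 genes that stood higher and 6 that stood lower in metformin mice (points, 4 SD, 5 EOW and 4 2WM mice, bars, group mean with standard deviation between mice), each by its probe of smallest p. In Sqle, Nsdhl and Srebf2, and in all 6 lower genes, no metformin mouse enters the SD range.

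Ldah, which encodes a hydrolase on the surface of lipid droplets, had the smallest p of all probes and was chosen after its values were seen, since its brightest probe overlapped. It read 1.94, 2.17, 2.20 and 1.82 in SD, 1.12, 1.40, 1.44, 1.07 and 1.35 in EOW and 1.32, 1.37, 1.35 and 1.62 in 2WM. The groups came closest at 2WM mouse 4 and SD mouse 4. The difference was −0.70 ± 0.104 (SE), 1.62-fold lower (adjusted p = 0.120), and its other probes gave −0.51 and −0.43.

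Hsd17b11, a short-chain dehydrogenase that also sits on lipid droplets, read 2.56, 1.98, 2.73 and 2.33 in SD, 1.59, 1.80, 1.86, 1.59 and 1.79 in EOW and 1.69, 1.21, 1.87 and 1.83 in 2WM. SD mouse 2 was closest to the metformin mice, just above the highest of them. The difference was −0.71 ± 0.142 (SE, adjusted p = 0.261) and its other probes gave −0.50 and −0.20. Acbd4 and Acbd5 encode acyl-CoA binding proteins, and ACBD5 tethers peroxisomes to the endoplasmic reticulum. Acbd4 differed by −0.50 in its lowest probe, with all 9 metformin mice below (adjusted p = 0.269), and by −0.50 and −0.28 in its other probes. Acbd5 differed by −0.78 ± 0.175 (SE, adjusted p = 0.310) with 8 of 9 below. Acbd4 and Acbd5 were picked after their values were seen.

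Triglyceride synthesis was split. Of 11 tested genes 4 were positive and 7 negative, with a median of −0.19, which was −0.12 without EOW mouse 4. Lipins, phosphatidate phosphatases that make diacylglycerol and can act as coactivators, were on the higher side. Lpin1 read −0.13, 0.38, 0.29 and 1.56 in SD, 3.25, 2.05, 1.73, 2.69 and 3.27 in EOW and 1.43, 1.63, 1.38 and 1.01 in 2WM. All EOW mice exceeded SD mouse 4, and of the 2WM mice 1 did. The difference of 1.53 ± 0.434 (SE, 2.88-fold, adjusted p = 0.486) was 2.07 in EOW and 0.84 in 2WM (EOW minus 2WM 1.23, interval 0.44 to 2.03, unadjusted p = 0.00503). Lpin2 differed by 0.79 ± 0.225, with 7 of 9 metformin mice above all SD mice. Dgat2, which adds the last acyl chain of triglyceride, differed by −0.35 ± 0.137 and Mttp, which loads lipid onto lipoproteins, by −0.37 ± 0.121 (adjusted p = 0.522 and 0.518).

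Transcription factors of fatty acid synthesis stood lower while the enzymes did not share a direction. Srebf1 read 1.62, 2.78, 1.25 and 2.29 in SD, 0.92, 1.41, 1.24, 1.25 and 0.36 in EOW and 1.34, 1.34, 1.33 and 1.84 in 2WM. Of the 9 metformin mice 4, all on EOW, lay below all SD mice, some of them narrowly. The remaining EOW mouse and all 2WM mice lay within the wide SD range (difference −0.76 ± 0.270 SE, adjusted p = 0.522, and −0.49 without SD mouse 2). Mlxipl differed by −0.44 ± 0.138 (SE, adjusted p = 0.511), with 8 of 9 metformin mice below all SD mice. Over the 21 tested genes of fatty acid synthesis the median was −0.024, from −0.34 in EOW and 0.28 in 2WM, and 10 of them had an unadjusted p under 0.05 between schedules, against 10.7% of all probes. Ppara, the fatty acid sensor of liver, differed by −0.31 and Angptl4, an inhibitor of lipoprotein lipase that PPARs induce, by 1.09 ± 0.446 (adjusted p = 0.528 and 0.532).

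Among genes that insulin represses, Pck1 and Igfbp1 each read above all SD mice in 8 of 9 metformin mice. Pck1, which commits oxaloacetate to gluconeogenesis, read 0.16, 0.96, 1.17 and 0.98 in SD, 2.78, 1.31, 2.27, 0.78 and 3.66 in EOW and 1.75, 2.27, 2.19 and 2.00 in 2WM. Every metformin mouse but EOW mouse 4 was above all SD mice (1.29 ± 0.401 SE, 2.45-fold, adjusted p = 0.505), and the schedules gave 1.34 and 1.24. Igfbp1, an insulin-repressed binding protein of IGFs, read 0.84, −0.45, 0.18 and 0.05 in SD, 1.04, 1.31, 1.54, 1.65 and 4.31 in EOW and 0.97, 2.86, 2.19 and −0.02 in 2WM. Only 2WM mouse 4 lay within the SD range (1.61 ± 0.592 SE, 3.05-fold, adjusted p = 0.522). Irs2, a substrate of the insulin receptor, differed by 0.67 ± 0.223 with 7 of 9 above. The lists were less uniform than these genes. Gluconeogenesis and its regulators had 11 of 15 tested genes positive (median 0.17), and insulin signalling 7 of 11 (median 0.039). At an unadjusted p under 0.05 the first list had 1 gene higher and 1 lower, and the second 2 and 2. Among all genes 47% were positive, and 3.03% were higher and 5.5% lower at such a p. Got1, an aspartate aminotransferase, differed by 0.71 ± 0.382 (SE, adjusted p = 0.602, and 0.47 without EOW mouse 5), and Trib3, a pseudokinase, by 0.078 at a level detected on 2 of 5 SD arrays. Ppp1r3c, which targets a phosphatase to glycogen, read 4.57 to 5.08 in SD, 2.98 to 3.95 in EOW and 4.06 to 4.96 in 2WM, so that its difference of −0.79 lay mainly in EOW.

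Mitochondrial isocitrate dehydrogenase, Idh2, differed by 0.62 ± 0.167 (SE, adjusted p = 0.464), nearly alike in both schedules (0.64 and 0.59, EOW minus 2WM 0.05, interval −0.36 to 0.47). EOW mouse 4 was the metformin mouse inside the SD range. Idh1, the cytosolic enzyme, differed by −0.058 ± 0.193, from −0.29 in EOW and 0.23 in 2WM. Mdh2, mitochondrial malate dehydrogenase, differed by 0.41 ± 0.143. The 23 tested genes of the TCA cycle had a median of 0.0060. Prkaa2, which encodes the alpha 2 catalytic subunit of AMPK, differed by −0.45 ± 0.143 (SE, adjusted p = 0.512), with 8 of 9 metformin mice below all SD mice and −0.44 and −0.46 in the schedules. Without SD mouse 3 it was −0.27. The 12 tested genes of metformin transport and AMPK had a median of −0.044. At an unadjusted p under 0.05, 1 of them was lower and 0 higher, against 5.5% lower and 3.03% higher among all genes.

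Several drug-metabolising enzymes read lower in metformin livers, with EOW below 2WM. Cyp2d13, a cytochrome P450 of the 2D family, read 1.16, 1.06, 1.23 and 1.11 in SD, 0.32, 0.45, 0.30, −0.26 and −0.05 in EOW and 0.56, 0.63, 0.65 and 0.94 in 2WM. The SD mice lay close together and above both schedules (−0.75 ± 0.178 SE, adjusted p = 0.383), and EOW lay below 2WM (−0.54, interval −0.85 to −0.24). Ces2e, a carboxylesterase, read 1.12, 1.15, 1.08 and 1.22 in SD, 0.04, 0.59, 0.26, −0.07 and 0.36 in EOW and 0.85, 0.59, 0.93 and 0.44 in 2WM. It showed the same order (−0.70 ± 0.164 SE, adjusted p = 0.350). Cyp2d40 differed by −1.04 ± 0.267 and Ces1e by −0.79 ± 0.269. Of 38 tested P450 genes 6 had an unadjusted p under 0.05 on the lower side and 0 on the higher (median −0.015), and of 58 conjugating enzymes and carboxylesterases 43 were negative (median −0.094), 6 of them with such a p. Among all genes 5.5% had such a p on the lower side and 3.03% on the higher. Between schedules, 14 of the 38 and 14 of the 58 had an unadjusted p under 0.05, against 10.7% of all probes. Without EOW mouse 4 the median of the conjugating enzymes was −0.042. These families hold near-identical copies that a probe may not separate. In retinol handling, Rdh9, a retinol dehydrogenase, differed by 0.67 ± 0.197, of which 0.95 in EOW and 0.32 in 2WM, and Dhrs4 by −0.51 ± 0.159.

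Saa4, the constitutive serum amyloid A, read 4.15, 4.27, 4.63 and 3.84 in SD, 3.66, 3.25, 3.66, 2.03 and 3.77 in EOW and 3.56, 3.06, 3.38 and 3.69 in 2WM. All 9 metformin mice were below all SD mice under each of the 4 scalings. The difference was −0.88 ± 0.270 (SE, 1.84-fold lower, adjusted p = 0.505) and −0.95 and −0.80 in the schedules. Saa1, an inducible acute phase protein, differed by −0.75 ± 0.324 with 2 of 9 below all SD mice, and by −0.41 without SD mouse 2. Other acute phase genes did not follow: Cp, ceruloplasmin, differed by 0.30 ± 0.110, which became −0.0059 under median centring, and the 24 tested genes had a median of 0.11 with 15 positive.

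Most tested histone genes read lower in metformin livers. H4c3 read −0.36, −0.24, −0.23 and 0.03 in SD, −0.71, −0.66, −0.51, −0.46 and −0.63 in EOW and −0.72, −0.61, −0.60 and −0.59 in 2WM. It was dim, detected on all 5 SD arrays but on 3 of 6 EOW and 3 of 5 2WM arrays, and its difference of −0.41 ± 0.0799 (SE, adjusted p = 0.241) is open to the background there. H3c6 differed by −0.53 ± 0.119 with no overlap, and was detected on 5 of 6 EOW arrays. It was free of overlap under 2 of the 4 scalings, and H4c3 under all 4. H3c4 differed by −0.42 ± 0.101 and H4c9 by −0.51. H3f3b, which encodes the replication-independent variant H3.3 from a polyadenylated transcript, differed by 0.48 ± 0.138. Of the 19 tested histone genes 15 were negative (median −0.25), 4 lower and 2 higher at an unadjusted p under 0.05, against 5.5% lower and 3.03% higher among all genes. The median was −0.11 without SD mouse 3 and −0.16 without EOW mouse 5. Most clustered histone transcripts lack a poly(A) tail, the labelling was primed with oligo-dT, and the copies are near-identical. How far their signal follows the transcripts was not tested.

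Most tested ribosomal protein genes had a positive difference. Of 56 tested genes of cytosolic ribosomal proteins 51 were positive, 19 with an unadjusted p under 0.05 and none lower. Among all 7816 genes 47% were positive, and 3.03% were higher and 5.5% lower at such a p. The median of the ribosomal genes was 0.26 (0.38 in EOW, 0.13 in 2WM), and it was −0.013 under median centring. The list's median deviation from the SD mean was −0.18 to 0.26 in SD mice, 0.12 to 0.65 in EOW and 0.035 to 0.26 in 2WM, so the groups overlapped through SD mouse 4. Rpl39 differed by 0.37 ± 0.121 with 8 of 9 above, Rpl3 by 0.53 ± 0.170 and Rps14 by 0.37 ± 0.110 (adjusted p = 0.521, 0.512 and 0.490). Eif4a1, the helicase of cap-dependent initiation, differed by 0.36 ± 0.114 and Gars, the glycyl-tRNA synthetase, by 0.33 ± 0.0882, in both cases with all 9 metformin mice above all SD mice. Under median centring Eif4a1 differed by 0.11 and Gars by 0.11, and each was free of overlap under 1 of the 4 scalings. In Gars the SD mice ranged from 3.66 to 3.90 and the metformin mice from 3.96 to 4.36. The integrated stress response, in which phosphorylation of eIF2 alpha slows general translation while ATF4 induces its target genes, had 10 of 13 tested genes positive (median 0.24) and none with an unadjusted p under 0.05. That median was 0.093 without 2WM mouse 2, 0.13 without EOW mouse 5, 0.14 without EOW mouse 4 and 0.16 without EOW mouse 2. The list's median deviation was −0.11 to −0.056 in the SD mice, −0.013 in EOW mouse 5 and 0.042 to 0.28 in the other metformin mice. This list was picked after its values were seen.

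Other genes also had all metformin mice above the SD mice. Prelp, a leucine-rich proteoglycan of matrix, differed by 0.50 ± 0.107, Capn10, a calpain, by 0.41 ± 0.0918, Prkar1a, the regulatory subunit of protein kinase A, by 0.35 ± 0.0914 and Aldoc, an aldolase, by 0.61 ± 0.175. Zpr1, a zinc finger protein, differed by 0.59, Psmd8, a subunit of the proteasome cap, by 0.47, Tgfbr2, a TGF-beta receptor, by 0.59, and Abcb8, a mitochondrial transporter, by 0.22. Scaling set limits on these: Prelp and Prkar1a were free of overlap under 1 of 4 scalings, Abcb8 under 2 and the other 5 under 3, and median centring gave 0.30 for Prelp, 0.14 for Prkar1a and 0.28 for Psmd8. EOW mouse 4 was the highest mouse for Psmd8 (4.60) and Tgfbr2 (3.91). Without it their differences were 0.38 and 0.46.

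On the lower side without overlap were Nme3, a nucleoside diphosphate kinase (−0.51 ± 0.116), Glyctk, glycerate kinase (−0.47 ± 0.118), Abcb6, a porphyrin transporter (−0.46 ± 0.115), Mospd3 (−0.43 ± 0.0975), AI661453 (−0.41 ± 0.105), Prkrip1 (−0.32 ± 0.0783) and Pik3r2, a regulatory subunit of PI3-kinase (−0.29 ± 0.0763). Of these, Nme3 and Glyctk did not overlap under any of the 4 scalings. Nme3 read at least 2.29 in SD and 1.59 to 2.24 in metformin mice.

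Where a gene with a non-overlapping probe had other tested probes, these were read as a check of the probe within the same mice. Among the higher genes 8 gave 14 pairings of a non-overlapping with another probe, of which 10 had the same sign and 7 also an unadjusted p under 0.05. Among the lower genes 26 gave 51, of which 47 had the same sign and 18 such a p. Abcb8 and Prkrip1 were among those whose other probe read near 0, at −0.018 and 0.0012, while those of Nsdhl, Sqle, Ldah, Acbd4 and Hsd17b11 all had the sign of the first.

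No probe differed between EOW and 2WM at an adjusted p under 0.05 (0% of 11143, smallest adjusted p 0.0866 in limma), and 1188 (10.7%) did at an unadjusted p under 0.05. Of the 32 probes above all SD mice 1 was among these and of the 56 below 8 were. Where the pooled difference is a mean of unlike schedules, the medians show it. Male-biased liver genes had a pooled median of −0.65 with 17 of 17 tested genes negative, from −1.31 in EOW and 0.11 in 2WM, and 13 of the 17 had an unadjusted p under 0.05 between schedules. Major urinary proteins, a family of near-identical genes, had −2.76 and 0.18 (4 tested). Single mice crossed between schedules. In median deviation from the SD mean, 2WM mouse 2 read −1.31 for male-biased genes. The other 2WM mice read 0.25 to 0.51 and EOW mice −2.09 to −0.72. For major urinary proteins 2WM mouse 2 read −1.63, while EOW mouse 2 read −0.35, within the SD range of −0.43 to 0.48. Interferon-stimulated genes had 29 of 32 positive, against 47% of all genes, with medians of 0.036 in EOW and 0.50 in 2WM.

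**Figure D4:**
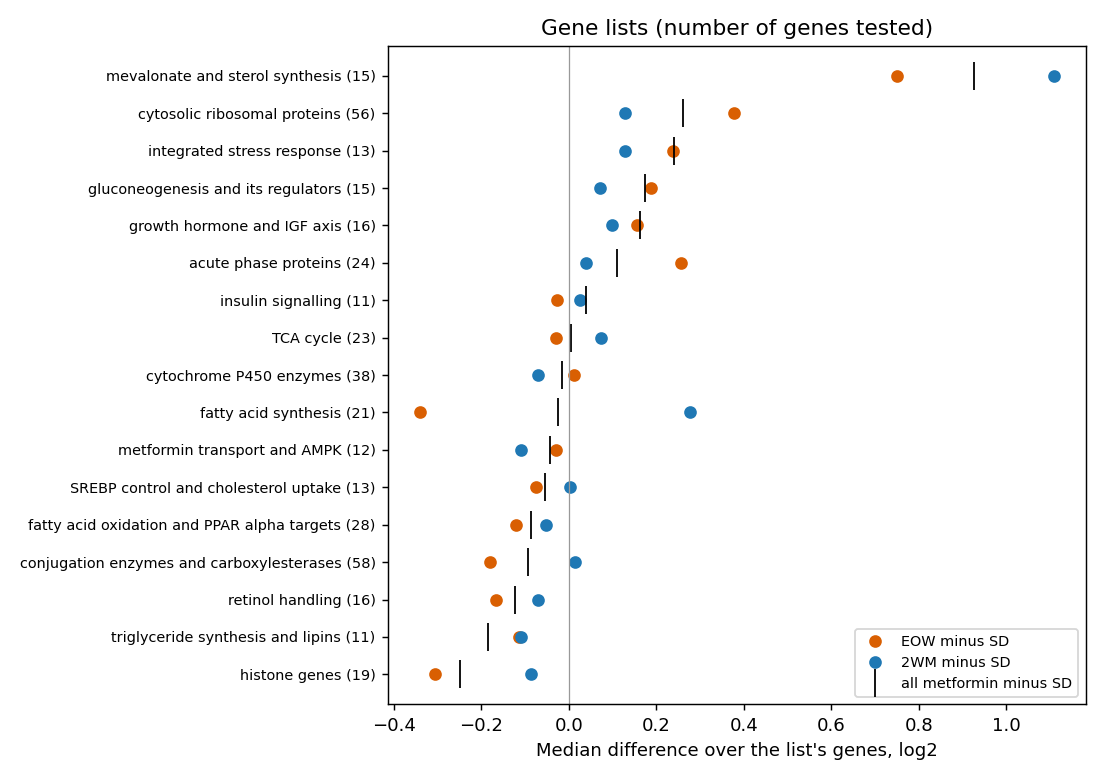
Median difference from SD in log2 units (x axis) over the tested genes of 17 lists (number in brackets), for EOW (orange), 2WM (blue) and all metformin mice (black bar). Sterol synthesis stands apart at 0.93, and fatty acid synthesis has schedules on opposite sides, −0.34 and 0.28.

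The call depended in part on the mouse that stood apart. Calls also arose with it kept, as for Sqle without SD mouse 4 or with array weights. Without EOW mouse 4, 8 probes stood higher at an adjusted p under 0.05 in limma (0.0718%) and 1 lower (0.00897%), and 48 (0.431%) and 76 (0.682%) did not overlap. The higher were 4 probes of Nsdhl (0.92 to 1.29, adjusted p = 0.0192 to 0.0424) and 1 each of Hmgcs1 (1.11, adjusted p = 0.0192), Idi1 (1.01, adjusted p = 0.0197), Cyp51 (1.15, adjusted p = 0.0406) and Trp53inp1 (0.60, adjusted p = 0.0192), and the lower was Ldah (−0.66, adjusted p = 0.0192). Thus 7 of the 8 were probes of sterol synthesis genes, while Sqle reached an adjusted p of 0.0619. Trp53inp1, a p53-induced stress gene, read 0.51 to 0.68 in SD, −0.86 in EOW mouse 4 and 0.99 to 1.49 in the other metformin mice. It and Cyp51 were picked after their values were seen. The removal followed the mouse's low correlation with the others, was decided after the data were seen, and rests on 4 EOW mice.

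**Figure D5:**
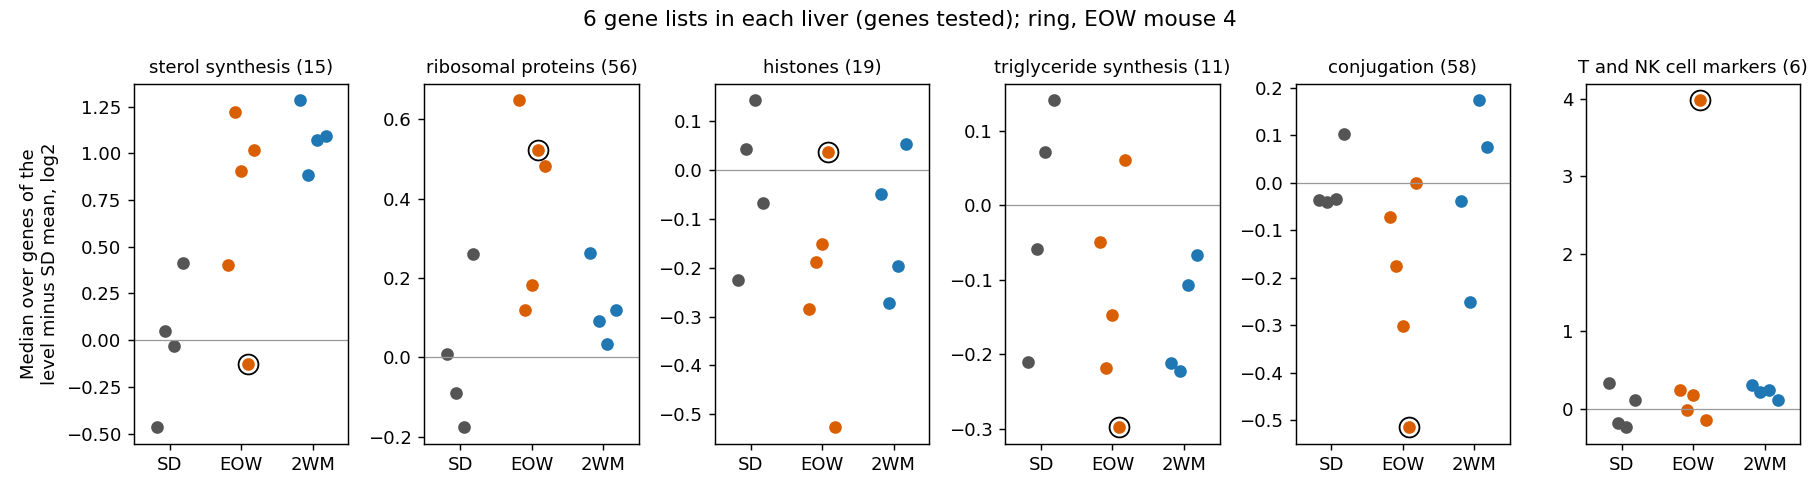
Median over a list's tested genes of each mouse's level minus the SD mean, in log2 units, for 6 lists (number of genes in brackets), with 1 point per liver and EOW mouse 4 ringed. That mouse reads −0.13 for sterol synthesis, where the other metformin mice read 0.40 to 1.28 and SD mice −0.47 to 0.41. SD mouse 4 lies just above EOW mouse 1 there. For T and NK cell markers EOW mouse 4 reads 3.99.

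Markers of other cells were read beside these results. T and NK cell markers had 6 of 6 tested genes positive, of 14 on the array (median 0.57, and 0.16 without EOW mouse 4), and macrophage markers 8 of 14 (median 0.14), among which Gpnmb, a lysosomal glycoprotein of lipid-laden macrophages, differed by 0.95 ± 0.283 (SE, adjusted p = 0.486). Sinusoidal endothelial markers had a median of −0.00032 over 14 genes those of stellate cells and fibroblasts 0.18 over 12 and those of erythroid cells −0.61 over 3. Glul, a marker of pericentral hepatocytes that also makes glutamine, differed by 0.54 ± 0.153 and the 9 pericentral markers had a median of 0.11. Macrophage markers ranged from −0.51 to 0.68 in SD mice and from −0.83 to 0.48 in metformin mice. Their part in the differences above was not tested.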

How the data were processed

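Liver RNA of 13 mice was measured on 16 Illumina arrays of 25697 probes. The deposited table holds the authors' non-normalized probe signal, an intensity summarised in GenomeStudio (2011.1, from the submitters' processing notes), with background subtraction and slide positions not given in the sources used here. The deposited detection p-value of each probe comes with each array. The authors also deposited a Z score of the log2 signal within each array. It differed from the Z score computed here by 0.00011 at most, so running it repeats the main comparison and is no separate check.

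The log2 signals were Z-scored within each array, multiplied by the mean array SD (1.46), and the repeat arrays of a mouse averaged. All 9 metformin mice were compared with the 4 SD mice with limma 3.58.1 (R 4.3.3, statmod 1.5.0, 11 residual degrees of freedom). P-values were adjusted by Benjamini and Hochberg over 11143 probes, with a threshold of 0.05. Schedules were compared in a fit of the 3 groups, in which EOW and 2WM share the 4 SD mice. Intervals are 95% intervals. The scripts were tested on simulated data. Array number limits the precision. Nothing in the labels says how far mice shared cages or days, and p-values measure the spread between these mice.

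Genes were named by a rule: those the study names for both schedules, the 12 with the smallest p among genes higher, and the 12 among those lower, in all 9 metformin mice than in all 4 SD mice, and up to 4 genes of smallest p in each list described. Exceptions are stated. The members and lists were chosen with earlier results of these data known. Of the probes, 23978 carry 1 gene symbol and 1719 none. Listed genes that were not detected or not matched are not analysed here. Alternatives were other scalings (neqc, quantile, median centring), filters, array choices and array weights. Others were equal weighting of the schedules, a replicate block, looser thresholds and each mouse left out. The deposited scores were also run, though they repeat the main values. Same-numbered mice did not deviate together (r −0.381 to 0.328), so numbers were not used as pairs.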

Additional observations from a re-analysis of the deposited data

Results flagged for a closer look

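Over the genes named, 26 of 270 groups of 4 or 5 mice had 1 mouse far from the rest of its group, judged by its gap to the nearest mouse over the group's range. Chance marks about 1 in 20 groups. No gene was flagged for a difference between schedules. A flag took an adjusted p under 0.05 between them, or all EOW mice on 1 side of the SD mean and all 2WM mice on the other. The smallest adjusted p over all probes was 0.0866 in limma, so the p-value could flag none. Differences at an unadjusted p, as for Sc5d, Idi1 and Lpin1, are given above.

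EOW mouse 4, which also stood apart over all probes, was the distant mouse in 7 of these. It read high for Psmd8 (4.6, nearest EOW mouse 3.88) and Tgfbr2 (3.91, nearest 2.98). It read low for Abcb6 (0.714, nearest 1.21), Ces1e (0.466, nearest 1.36), Cyp2d40 (1.22, nearest 1.94), Bcl6 (−1.58, nearest 1.33) and Stard4 (3.06, nearest 3.54). The other EOW mice so marked were mouse 5 for Igfbp1 (4.31, nearest 1.65), Nupr1 (−0.296) and Tsc2 (1.9), mouse 2 for Socs2 (2.87) and mouse 1 for Pdk4 (−0.312).

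In SD, mouse 4 was distant for Trib3 (−0.404), Srebf2 (0.209), Eif4ebp1 (3.69), Rdh9 (2.92) and Pdk4 (−0.223), and mouse 3 for Idh1 (4.76) and Eif4a1 (4.45). In 2WM, mouse 1 was distant for H4c3 (−0.719), mouse 2 for Tgfbr2 (2.69) and H4c9 (0.332), mouse 3 for Zpr1 (2.59) and Cyp2d40 (2.85), and mouse 4 for Srebf1 (1.84) and Pik3r1 (2.57).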

How the results depend on the processing

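The pooled comparison called 0 probes with limma at an adjusted p under 0.05. Array weights gave 15 higher and 5 lower, an adjusted p under 0.30 gave 8 and 4, and the study's criteria, built on a z test per probe in place of limma (z test p under 0.05, that test's own adjusted p under 0.30, z-ratio above 1.5 and an analysis of variance over the 3 groups), gave 113 and 205. The z test takes its p from a normal curve, which is too narrow for groups this small. Leaving out each mouse gave 0 to 8 higher and 0 to 1 lower, with 8 and 1 without EOW mouse 4. With the schedules weighted equally and that mouse left out, a choice made after seeing the data, 5 and 2 were called. The replicate block called 0 higher and 0 lower. The cause of these shifts was not tested.

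Under median centring there were 7 non-overlapping probes higher and 200 non-overlapping probes lower than SD. They numbered 68 above with no filter on dim probes, where more probes are tested, and 31 below with 1 probe per gene, where fewer are. Leaving out each mouse gave 33 to 132 above and 61 to 273 below, most without SD mouse 4 (132 and 273) and then SD mouse 1 (92 and 155), and fewer mice overlap less by construction.

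Of 90 named genes 87 kept their direction under all settings tried for them. Among these settings the filters and the deposited scores could in effect not move a gene's difference. Cp read −0.0059 under median centring. Idh1 read 0.11 with array weights, and −0.11 to 0.027 over the mice left out (0.027 without EOW mouse 1, 0.013 without EOW mouse 4). Sc5d read 0.14 with array weights. With array weights the adjusted p of Sqle was 0.00406 and that of Hmgcs1 0.00326. Of 17 list medians, that of ribosomal proteins moved beyond the spread of mice, to −0.013 under median centring, and 10 changed sign under some setting.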
